A study of Mus musculus with 2 samples.

Results

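The GDNF-family ligands, their GFRA receptors and the receptor tyrosine kinase Ret were examined in ureter explants in which canonical WNT signaling had been activated pharmacologically. The genes were taken by name, as every biological probe annotated in both scanner tables to Gdnf, Nrtn, Artn, Gfra1, Gfra2, Gfra3 or Ret. All 7 genes were found among the 29871 gene names on the array, each with 1 probe. The explants were ureters from E12.5 embryos of the NMRI strain, wildtype and of undetermined sex, kept on transwell membranes for 18 h in medium with 10 µM BIO or with the solvent DMSO at 2 parts per 1000 as control. BIO is an inhibitor of the kinase GSK3. Control and BIO RNA shared each of the 2 arrays, a channel each, and came from separate pools of ureters, with BIO in the red channel in replicate 1 and in the green channel in replicate 2. Each RNA came from whole explants, with the ureteric epithelium (UE) and ureteric mesenchyme (UM) not separated, so that fewer cells of a type and less RNA per cell cannot be told apart.

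The ligands of this family bind GFRA proteins, which are anchored to the membrane by a lipid and have no kinase of their own, and the complex then activates RET. GDNF acts mainly through GFRA1, neurturin (Nrtn) through GFRA2 and artemin (Artn) through GFRA3. In kidney development GDNF is secreted by metanephric mesenchyme and RET with GFRA1 receives it in the ureteric bud (UB), whose outgrowth and branching depend on the pair. RET and the GFRA proteins also serve neural crest derivatives, among them enteric neurons and the sympathetic and parasympathetic neurons of the pelvis.

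The stretch of each transcript that was read determines what a ratio can say, and the opening 30 of the 60 bases of the probes are given here, 5′ to 3′, for 6 of the 7 genes. The probes lie on mouse build mm9, at chr15:7787474-7787533 on the plus strand for Gdnf, chr17:56890748-56890807 on the minus strand for Nrtn, chr4:117598825-117598884 on the minus strand for Artn, chr19:58311604-58311663 on the minus strand for Gfra1, chr14:71379586-71379645 on the plus strand for Gfra2 and chr6:118101791-118101850 on the minus strand for Ret. No annotation of this build was used here, so that the exon behind each probe is not given.
Gdnf: ctgatgtctcggtcgtttgtgttatacaac
Nrtn: aagggccctccctgccgaccctcgctgaga
Artn: atatatacatatatacattgtagtcgcgtt
Gfra1: ccacaacttagaacagtttggattcaaggt
Gfra2: tgcattcactcttaaccaagctccaataaa
Ret: ccataccgtgttgacttgtttttgtaatca

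With BIO, 4 of the 7 genes fell, 3 did not pass the test and 0 rose. Ret fell most, followed by Gfra3, Artn and Gfra1, while Gfra2, Nrtn and Gdnf were not called. The median log2 ratio of BIO over control was -0.83 over the 7 genes and -0.01 over all 21574 genes tested. Among all genes tested 14.8% were called lower and 9.13% higher, 23.9% in either direction. A gene was called at an adjusted p under 0.05, from limma on both arrays with Benjamini-Hochberg adjustment over all probes tested. Every member was well above background in both channels of both arrays. With the deposited table of scores, which is rounded to 1 decimal, the 4 calls were lost, with adjusted p of 0.229 for Ret, 0.0536 for Gfra1 and 0.16 for both Gfra3 and Artn, and Nrtn was called in their place.

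**Figure D1:**
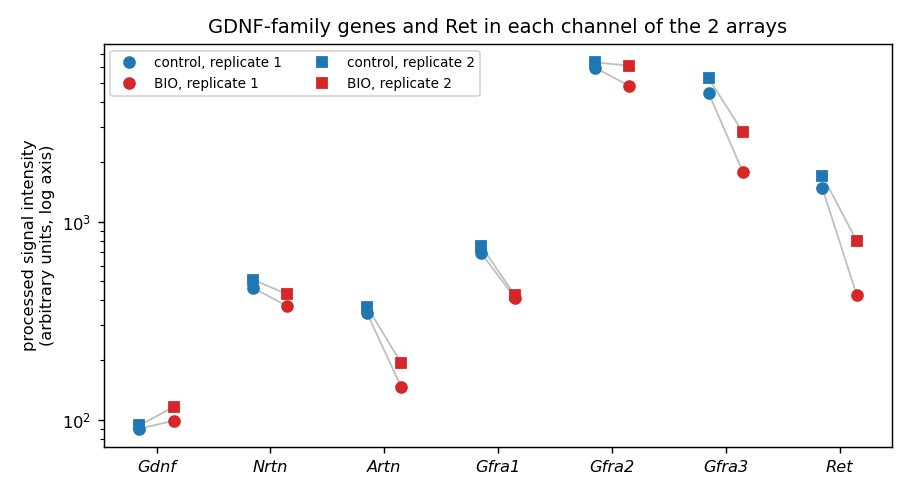
Processed signal intensity (arbitrary units, log axis) of the 7 genes in control (blue) and BIO (red), with circles for replicate 1, squares for replicate 2 and a line joining the channels of an array. In Ret, Gfra1, Gfra3 and Artn, and also in Nrtn, which was not called, both BIO values lie below both control values. Levels of different genes are not comparable because each comes from its own probe.

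Ret encodes the signaling receptor of the family. Its processed signal intensity, which Feature Extraction had background-subtracted and dye-normalized, went from 1471 in control to 428.1 with BIO on the array of replicate 1 and from 1703 to 801.4 on that of replicate 2. Both BIO values lay below both control values, and the 4 spots of the probe kept the same order in each array, at 1424 to 1506 against 421.3 to 435.9 and at 1642 to 1768 against 781.1 to 834.4. The share of all genes tested with BIO wholly below control was not counted, here or for the genes below. Nrtn, which was not called, also showed this order. The log2 ratios of BIO over control were -1.81 and -1.11, and their mean was -1.46 ± 0.16 (SE, n = 2 arrays, limma adjusted p = 0.000579), which is 2.75-fold lower. Of all genes tested 1.08% had a lower mean ratio than Ret. The arrays differed in size of the decrease: the difference of the log2 ratios, replicate 1 minus replicate 2, was -0.69, and 97.4% of genes tested had a smaller difference between arrays. The direction was shared by all 4 spots of both arrays, since the spot ratios ran from -1.83 to -1.78 and from -1.25 to -1.03.

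Gfra1 encodes the preferred co-receptor of GDNF. Its processed intensity went from 694.5 in control to 412.3 with BIO in replicate 1 and from 754.6 to 423.9 in replicate 2. Control and BIO did not overlap, and the log2 ratios of -0.82 and -0.84 were nearly equal on the arrays. The mean was -0.83 ± 0.11 (SE, n = 2, limma adjusted p = 0.00117), a 1.78-fold decrease. The difference between arrays was 0.01, and 4.49% of the genes tested had a smaller one.

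Gfra2, the co-receptor of neurturin, went from 5974 in control to 4837 with BIO in replicate 1 and from 6349 to 6105 in replicate 2. The BIO value of replicate 2 lay between the control values of the arrays. The log2 ratios were -0.39 and -0.01, and the mean of -0.20 ± 0.13 (SE, n = 2, limma adjusted p = 0.3) did not pass the test.

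Nrtn, the gene for the ligand, went from 462.4 in control to 374.1 with BIO in replicate 1 and from 508.3 to 429.6 in replicate 2. BIO was lower on both arrays, by log2 ratios of -0.40 and -0.26, and both BIO values lay below both control values. The mean of -0.33 ± 0.11 had an unadjusted p of 0.0173 and an adjusted p of 0.0657 (limma, n = 2), so that it missed the threshold.

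Gdnf, the ligand of GFRA1 and the signal for UB outgrowth, had a processed intensity of 90.39 in control against 98.98 with BIO in replicate 1 and of 93.82 against 116.2 in replicate 2. The log2 ratios of -0.00 and 0.19 had a mean of 0.10 ± 0.11 (SE, n = 2, limma adjusted p = 0.598). In replicate 1 the spots of the Gdnf probe overlapped between channels, at 84.55 to 95.93 in control and 83.05 to 118.2 with BIO, whereas in replicate 2 they did not, at 88.85 to 98.06 and 110 to 122.9. The mean ratio was 0.12 with an offset of 16 in place of 50 in the background correction and 0.11 without background subtraction, and Gdnf was not called in any of the 7 alternative settings.

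Artn encodes artemin, a ligand produced along blood vessels that attracts sympathetic axons and neuroblasts. It went from 344.5 in control to 146.4 with BIO in replicate 1 and from 371.9 to 193.3 in replicate 2. The groups did not overlap, which held for Nrtn as well, although Nrtn was not called. The log2 ratios were -1.25 and -0.86, with a mean of -1.05 ± 0.13 (SE, n = 2, limma adjusted p = 0.000853), a 2.08-fold decrease, and 2.5% of the genes tested had a lower ratio.

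The promoters of the ligands and of Gfra1 were inspected because TCF/LEF factors are the nuclear effectors of canonical WNT signaling. RefSeq windows of 250 bases before to 50 after the transcription start (build GRCm38.p6) were given for 4 of the 7 genes, in 5 windows, for Artn, Gdnf, Nrtn and Gfra1. The words CTTTGAT and CTTTGTT were searched on both strands. They differ in 1 letter and were counted separately. Neither was present in any of the 5 windows, and of all 32851 windows 3.73% held CTTTGAT, 5.85% held CTTTGTT and 9.33% held at least one of them. The 250 upstream bases of both genes with a window that fell are shown in transcript direction, at chr4:117929764-117930013 on the minus strand for Artn and chr19:58455399-58455648 on the minus strand for Gfra1. No capitals appear because neither word was found.
Artn: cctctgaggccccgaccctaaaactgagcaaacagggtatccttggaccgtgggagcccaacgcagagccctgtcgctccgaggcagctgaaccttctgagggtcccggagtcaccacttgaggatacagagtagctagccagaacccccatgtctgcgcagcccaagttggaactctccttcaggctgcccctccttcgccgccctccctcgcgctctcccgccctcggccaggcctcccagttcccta
Gfra1: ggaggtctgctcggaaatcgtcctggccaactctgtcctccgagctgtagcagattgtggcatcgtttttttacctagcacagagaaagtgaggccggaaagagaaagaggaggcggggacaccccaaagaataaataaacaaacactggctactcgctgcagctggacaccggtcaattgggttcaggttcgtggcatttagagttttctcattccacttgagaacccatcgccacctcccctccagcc
Their GC content was 63.6% for Artn and 52.4% for Gfra1.

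Gfra3, the co-receptor of artemin, fell as well. Its probe lies at chr18:34849560-34849619 on the minus strand of mm9. The signal went from 4433 in control to 1786 with BIO in replicate 1 and from 5262 to 2830 in replicate 2. Both BIO values lay below both control values. The log2 ratios were -1.30 and -0.91, with a mean of -1.10 ± 0.13 (SE, n = 2, limma adjusted p = 0.000682), a 2.15-fold decrease, and 2.26% of genes tested had a lower ratio. The ligand Artn and its co-receptor Gfra3 thus had mean log2 ratios that differed by less than their standard errors, whereas for neurturin and Gfra2 neither gene was called, and for GDNF the receptor genes were called and the ligand was not. No difference between members was tested.

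**Figure D2:**
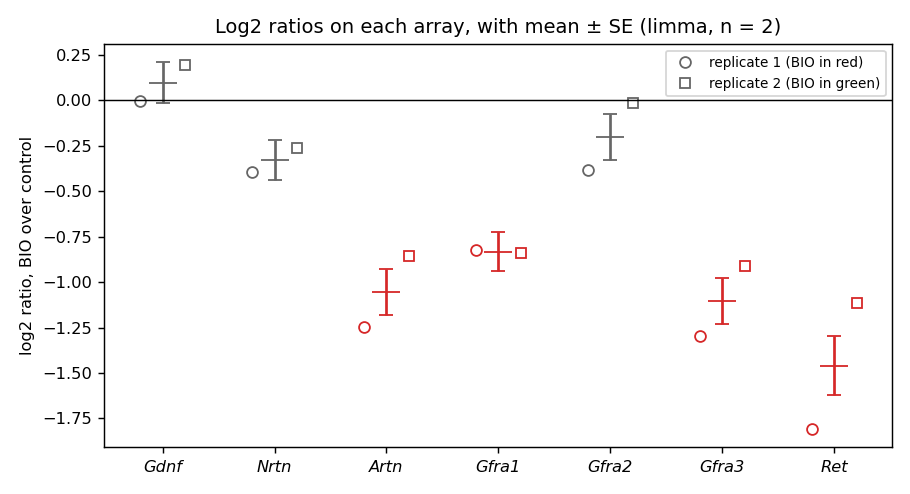
Log2 ratio of BIO over control for the 7 genes on each array (circle, replicate 1; square, replicate 2), with the mean (horizontal line) and its SE from limma (bars, n = 2); red marks genes called at an adjusted p under 0.05. The 4 genes called lie between -1.81 and -0.82 on both arrays, and in 6 of the 7 the ratio of replicate 1 was the lower one, Gfra1 being the exception.

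The order of the mean ratios, from Ret over Gfra3, Artn and Gfra1 to Nrtn, Gfra2 and Gdnf, was described and not tested. Gfra3 and Artn, Artn and Gfra1, and Nrtn and Gfra2 were neighbours whose means differed by less than the sum of their SEs. A further rule asked for a change of 2-fold or more, in one direction on both arrays, and a brighter channel of at least 100. Applied to processed signals without a test, it took Ret alone of the 7 genes as lower. This rule placed 1.47% of 29864 genes lower and 0.753% higher. For Gfra3 and Artn the processed log2 ratio passed 2-fold in replicate 1, at -1.31 and -1.24, and stopped short of it in replicate 2, at -0.89 and -0.94.

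The genes with the pair of ratios nearest to that of Ret were Lilr4b, Mirg, Fibin, Abcg1 and Nrros, at Euclidean distances of 0.0148 to 0.11 over the 2 arrays. With 2 arrays many genes lie close by: 42 genes lay within 0.25 and 4 within 0.1.

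**Figure D3:**
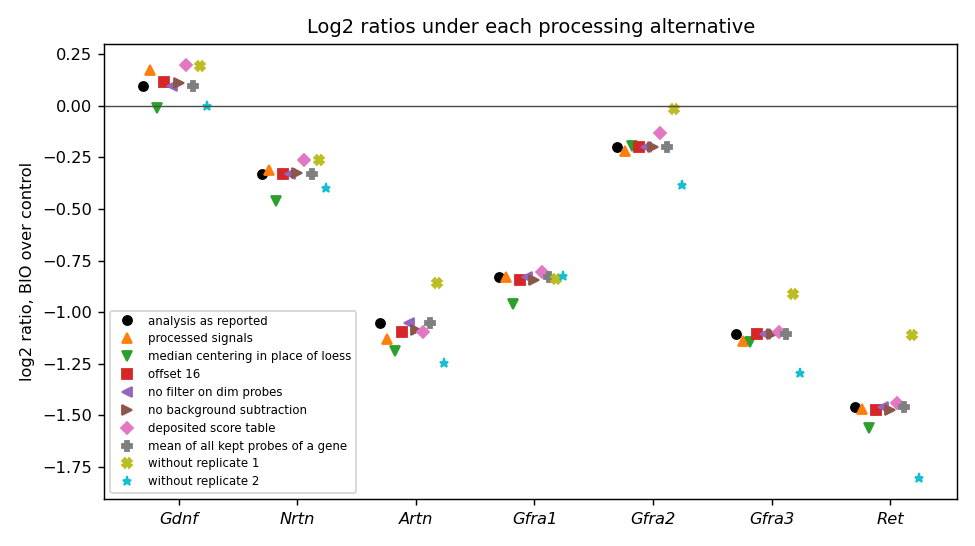
Log2 ratio of BIO over control for each gene under the analysis as reported (black circles) and each alternative setting (other markers). Ret, Gfra3, Artn and Gfra1 stay below 0 in every setting shown, Ret between -1.81 and -1.11, and Gdnf lies on either side of 0.

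The other members of the family were less informative. Gfra4, the co-receptor of persephin, had a log2 ratio of -0.01 ± 0.11 (SE, n = 2, limma adjusted p = 0.967). Pspn, the gene for persephin, and Gfral, a distant GFRA relative, were not well above background in either condition on both arrays and were not tested. Gdf15, the ligand of GFRAL, rose by 0.77 ± 0.12 (adjusted p = 0.0026) from 29.84 to 65.75 in replicate 1 and from 27.45 to 80.16 in replicate 2.

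Genes that depend on GDNF and RET in the UB were then examined. Of 10 such genes, all tested, 7 were lower and 1 was higher with BIO, beside 14.8% and 9.13% of all genes tested. The median log2 ratio was -0.66. Cxcr4, a chemokine receptor, fell by 1.83 ± 0.12 (limma adjusted p = 6.1e-05), from 2019 to 613.3 and from 2481 to 644.6. Dusp6, a phosphatase that limits ERK, fell by 1.83 ± 0.17 (limma adjusted p = 0.000233), from 6250 to 1380 and from 6887 to 2520. In both genes no BIO value reached a control value. Etv5, an ETS factor needed in UB tips, fell by 1.53 ± 0.13, and Spry1, a feedback inhibitor of RET signaling, fell by 1.26 ± 0.15. The related ETS factor gene Etv4 (-0.75), the collagenase gene Mmp14 (-0.56) and Wnt11 (-0.45), which signals back to Gdnf in the mesenchyme, were called lower too and are named after their values were seen. Myb, a proto-oncogene of the list, went the other way and rose by 1.55 ± 0.12 (adjusted p = 0.000138). Met (0.14), a receptor tyrosine kinase that acts beside RET, did not pass. The call of Mmp14 rested on replicate 2, with log2 ratios of -0.19 and -0.93, and held in 2 of 7 alternative settings. None of the 10 genes was called lower with the deposited score table. The list is not specific to RET, since the paper reads Spry1 as a target of FGF signaling. The part of RET, of other pathways or of cell types in these ratios was not tested.

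Modulators of the pathway, meaning alternative co-receptors, inhibitors and extracellular limits, showed 7 lower and 2 higher genes of 12. Over all genes tested 14.8% were lower and 9.13% higher. The median log2 ratio of the modulators was -0.41. Spry4, an intracellular feedback inhibitor, fell by 2.30 ± 0.13 (limma adjusted p = 3.5e-05), from 250.8 to 21.47 and from 335.5 to 58.98. BIO was lower on both arrays, at log2 ratios of -2.48 and -2.11, and since the offset of 50 narrows the ratio of a signal as dim as that with BIO, the mean ran from -3.06 to -2.30 over the alternative settings. Sdc3, a heparan sulfate proteoglycan that binds GDNF, fell by 0.54 ± 0.11. Bmp4, which restrains the response of the epithelium to GDNF, fell by 0.51 ± 0.11, and Robo2, a receptor that limits the Gdnf domain, fell by 0.46 ± 0.11. Of 7 alternative settings the call held in 6 for Sdc3, 5 for Bmp4 and 4 for Robo2. The mean ratio of Bmp4 ran from -0.59 to -0.22 over these settings. Grem1, the BMP antagonist that lifts the action of BMP4, rose by 0.65 ± 0.11 (adjusted p = 0.00436), and Lrig1, an inhibitor of receptor tyrosine kinases, by 0.77 ± 0.11 (adjusted p = 0.00193). Ncam1 (-0.30) and Gas1 (-0.29), both binding partners of the pathway, did not pass. The modulators called lower numbered 3 with processed signals, 2 with median centering in place of loess and 0 from the deposited scores. With median centering 1939 of all 21574 genes tested were called lower.

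Adaptors and effectors carry the signal from activated RET. Of 16 genes 15 were tested, with 1 lower, 3 higher and a median of -0.12, calls in about the share of all genes tested (23.9%). The count called lower was 0 with processed signals or median centering and 4 from the deposited scores. Dok4, a docking protein, fell by 0.42 ± 0.11 (adjusted p = 0.0252). Frs2, Dok1 and Gab1, which also encode docking proteins, rose by 0.37 to 0.38 with limma adjusted p between 0.0407 and 0.0436. Of 7 alternative settings the call held in 3 for Gab1, 4 for Frs2 and 5 for Dok1. Shc1 (-0.29), Grb2 (-0.12) and Ptpn11 (0.12) did not pass the test and are named after their values were seen.

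**Figure D4:**
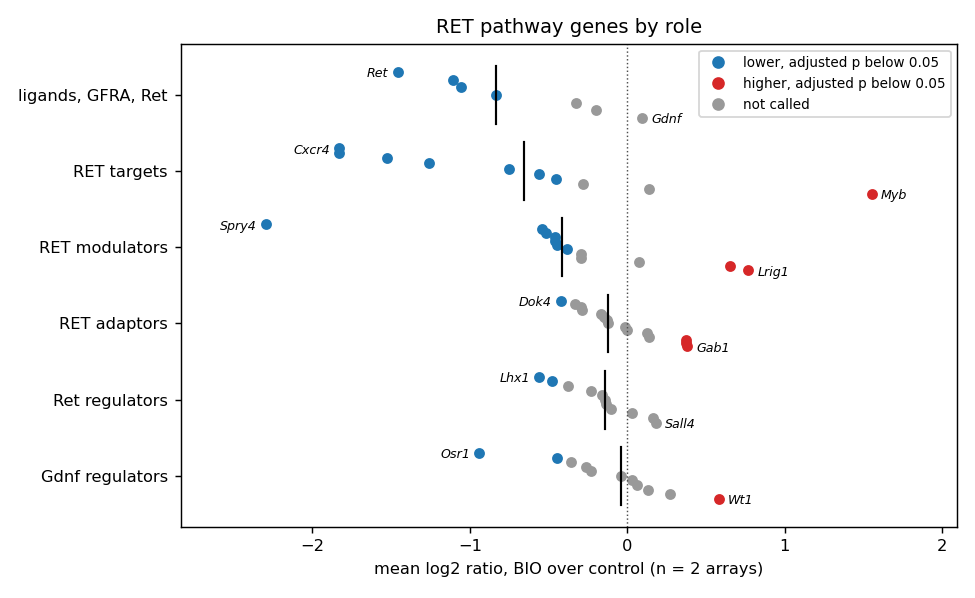
Mean log2 ratio of BIO over control (n = 2 arrays) of each tested gene, in rows by role, with the median of each row as a vertical line and the lowest and highest gene named. Medians of the rows shown run from -0.83 for the ligands, GFRA receptors and Ret through -0.66 for RET targets to -0.04 for regulators of Gdnf.

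Of 11 transcription regulators upstream of Ret, 2 were lower and 0 higher, beside 14.8% of all genes tested called lower. The median was -0.14, and -0.23 in replicate 1 and -0.21 in replicate 2 taken alone. Lhx1, a LIM homeobox gene of the nephric duct, fell by 0.56 ± 0.11 (adjusted p = 0.00836). Gata3, which acts on Ret in the nephric duct, had log2 ratios of -0.28 and 0.08, and Pax2 of -0.05 and -0.21, so that neither passed. Sox9 had -0.80 in replicate 1 and 0.34 in replicate 2 and Sall4 had 0.66 and -0.30, opposite directions on the arrays. These genes without a call were named after their values were seen.

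Regulators of Gdnf in the mesenchyme had 2 lower and 1 higher of 11, with a median of -0.04. These are about the shares of all genes tested, 14.8% lower and 9.13% higher. Osr1 is also counted among the kidney mesenchyme markers below. Osr1, a zinc finger gene of intermediate mesoderm, fell by 0.94 ± 0.12 (adjusted p = 0.000898), from 1804 to 874.8 and from 1757 to 1024. Hoxa11 fell by 0.45 ± 0.12. Wt1, a zinc finger gene of kidney mesenchyme, rose by 0.58 ± 0.18 (adjusted p = 0.0471), but its log2 ratios of 0.18 and 0.98 were far apart and the call held in 2 of 7 alternative settings.

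Markers of the cell types that carry these receptors were read beside the members. All 10 UE markers were well above background, 6 were lower and 0 higher, with a median log2 ratio of -0.57. Beside this and the further marker lists stand the shares of all genes tested, 14.8% lower and 9.13% higher. All 3 keratin genes fell, with mean log2 ratios of -1.24 ± 0.11 for Krt19, -0.91 ± 0.13 for Krt8 and -0.89 ± 0.13 for Krt18. The adhesion gene Cdh1 fell by 1.04 ± 0.11. Epcam (0.02) and Cldn7 (-0.06), which mark the same epithelium, did not pass. The summed processed intensity of the list went from 80253 in control to 45970 with BIO in replicate 1 and from 82019 to 53452 in replicate 2. None of the epithelial calls held with the deposited score table.

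Of 18 markers of the neural crest lineage, Schwann cell precursors and autonomic neurons, 17 were tested, 10 were lower and 0 higher, with a median of -0.49. The lower calls numbered 6 with median centering and 3 from the deposited scores. The mean log2 ratio was -0.88 ± 0.11 for Stmn2, a neuronal microtubule gene, and -0.87 ± 0.11 for Ngfr, the low-affinity neurotrophin receptor. It was -0.84 ± 0.12 for Dbh, an enzyme of noradrenaline synthesis, and -0.81 ± 0.11 for Ednrb, an endothelin receptor. The lineage factor Sox10 (-0.49), named after its value was seen, was called lower, while Tubb3 (0.26) and Hand2 (0.00) were not called. Their summed intensity went from 67907 to 47706 in replicate 1 and from 81286 to 65755 in replicate 2. The part of these markers, and of the epithelial ones, in the ratios of Ret, Gfra1, Gfra3 and Artn was not tested.

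**Figure D5:**
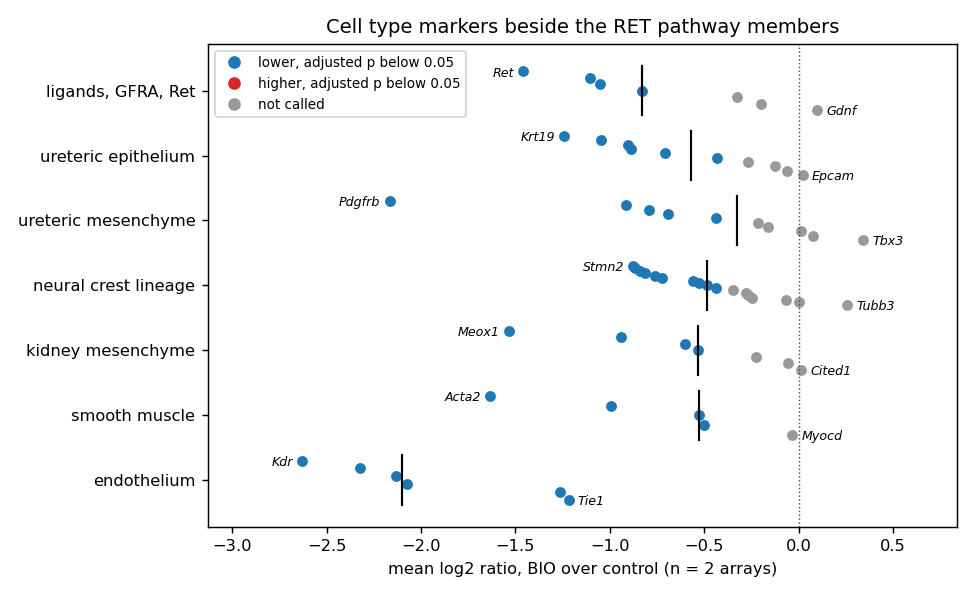
Mean log2 ratio of BIO over control (n = 2 arrays) of each tested marker gene, in rows by cell type below the 7 genes of the family, with the median of each row as a vertical line and the lowest and highest gene named. Every row has genes called lower and no row has genes called higher; the endothelial median of -2.10 is the lowest.

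UM markers had 5 lower and 0 higher of 10, with a median of -0.33, which was -0.59 without replicate 2 and -0.17 with median centering. Pdgfrb, a growth factor receptor of perivascular and mesenchymal cells, fell by 2.17 ± 0.15. The mean log2 ratio was -0.91 ± 0.13 for the collagen gene Col3a1, -0.79 ± 0.11 for Pdgfra and -0.69 ± 0.12 for Gata2, all called lower. Tbx18 (-0.22), the defining transcription factor gene of the UM, was not called. Foxf1, Tbx2, Tbx3 and Ptch1 were not called either. The arrays went opposite ways for Foxf1 (-0.80 and 0.48), Ptch1 (0.32 and -0.17) and Tbx2 (0.05 and -0.03). Of these genes only Tbx3 had positive ratios on both arrays, at 0.26 and 0.43. These genes without a call are named after their values were seen. The UM markers called lower numbered 2 with median centering and 0 from the deposited scores. Their summed intensity went from 226270 to 147860 and from 238930 to 169340. Markers of kidney mesenchyme, the source of GDNF in the embryo, were also read: 7 of 8 were tested, with 4 lower, 0 higher and a median of -0.54. Meox1 was called lower. It was well above background with BIO on 1 of the 2 arrays only, and its fitted log2 ratio ran from -2.62 to -1.53 over the settings. Foxd1 (-0.60 ± 0.12) and Crym (-0.54 ± 0.12) were called lower, while Six2 (-0.06) and Cited1 (0.01) were not called. Uncx was not well above background. The summed intensity of kidney markers was 28429 against 23807 in replicate 1 and 30106 against 23691 in replicate 2.

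All 6 endothelial markers fell, with a median of -2.10. The mean log2 ratio was -2.63 ± 0.20 for Kdr, a VEGF receptor, -2.32 ± 0.22 for Cdh5 and -2.13 ± 0.11 for Pecam1, both endothelial junction genes, and -2.07 ± 0.20 for Emcn. Their summed intensity went from 21651 to 3563 in replicate 1 and from 25721 to 6903.1 in replicate 2. Smooth muscle markers were lower in 4 of 5, among them Acta2 (-1.63 ± 0.11) and Tagln (-0.99 ± 0.11), genes of the contractile apparatus. Myocd, named after its value was seen, was not called. The median of the list was -0.53, the value of Myh11, which was well above background with BIO on 1 of the 2 arrays only. Over the settings this median ran from -1.02 to -0.53. The summed intensity of the list went from 12205 to 5266.2 and from 12733 to 5788.9. The part of these cell types in the ratio of Artn or of any other member was not tested.

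Axin2, Lef1, Nkd1 and Sp5, established targets of canonical WNT signaling, all rose, by 1.07 to 2.80 on the log2 scale. Across 21574 genes, which do not count as replicates, the ratios of the arrays correlated at r = 0.811. The share of probes well above background was 80.9% for control against 70.1% for BIO in replicate 1 and 73.7% against 78.1% in replicate 2.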

How the data were processed

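Two-colour Agilent arrays with 60-base probes, each biological probe spotted 4 times, were quantified by the authors with Feature Extraction 10.7.3.1 per the labels. The deposited tables give mean spot and median local background intensities, left uncorrected, and processed signal intensities, which the software had background-subtracted and dye-normalized. A further deposited table holds 1 score per probe and array, rounded by the authors; set against the scanner values (r = 0.917 and 0.941) it tracks a fold change with a sign, positive where BIO is higher, its median is 1 on both arrays, and its centering is unknown. Array positions are on mm9 per the file headers.

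Here mean intensities were corrected by normexp (offset 50) and normalized by loess within each array in limma 3.58.1 and R 4.3.3, with control spots and spots marked as outliers (3.49% and 3.16% of biological spots) at weight 0 and then left out; 0 spots were saturated. The spots of a probe were averaged and the swapped ratio was turned. A probe counted as above background when a share over 0.5 of its spots was marked so, and was tested when this held in control or in BIO on both arrays, for 28824 probes, with lmFit and eBayes against 0, two-sided, and Benjamini-Hochberg adjustment at 0.05. A gene was represented by its brightest probe. The number of arrays limits the precision: the median SE of a log2 ratio was 0.111. Both arrays lay on 1 slide. The pools of ureters stand for biological replicates as the methods describe them, and p-values rest on the spread between the 2 arrays moderated by that of all probes (prior of 7.14 degrees of freedom).

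Named were all members and, from each list, up to 4 genes called in each direction by size; other genes are marked as named later. Single values of a few listed genes are not reported here. Members and lists were chosen with earlier results of these data known. Alternatives were the processed signals, median centering, an offset of 16, no filter on dim probes, no background subtraction, the score table, the mean of all probes of a gene, each array alone and a 2-fold rule. The fit was tested on simulated data first. Promoter sequences came from RefSeq (GRCm38.p6).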

Additional observations from a re-analysis of the deposited data

How the results depend on the processing

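The calls of Ret, Gfra1, Gfra3 and Artn held in 6 of the 7 alternative settings with a test and were lost with the deposited score table, where the count of members called was 1 (Nrtn, adjusted p = 0.0342). There Ret had -1.44 ± 0.31 (SE, limma adjusted p = 0.229), Gfra1 -0.81 ± 0.03 and Nrtn -0.26 ± 0.005. In the analysis as reported the SEs of these genes were 0.16, 0.11 and 0.11. The table is rounded to 1 decimal, and the cause of the lost calls was not tested. Over its alternatives the limma adjusted p of Ret ran from 4.3e-11 to 0.229. The 4.3e-11 came from median centering, where all 7 members had the same SE of 0.216. It thus did not reflect the spread of Ret itself between the arrays. With the mean of all probes Nrtn was called as well (adjusted p = 0.0494). By the 2-fold rule 1 member was lower. The arrays alone, which allow no test, gave Ret log2 ratios of -1.81 to -1.11. Of the pathway and marker genes 53 were called lower, but 35 after median centering and 12 from the score table; 8 were called higher, but 5 from processed signals, 3 after median centering, 5 at an offset of 16 and 2 from the score table. RET targets called lower numbered 0 to 7 and modulators 0 to 7 over the alternatives, the 0 with the score table, which also left 1 kidney mesenchyme, 2 endothelial and 1 smooth muscle marker called lower. Over all genes 5154 were called, against 2766 after median centering, 3248 from the score table and 4108 from processed signals. The test was paired by array, because each array sets BIO against its own control and the ratios, in 1 group, were tested against 0. The slide was not run as a block because there is 1 slide.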
